A study of Mus musculus with 72 samples.

Results

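Chromatin-associated RNA sequencing (ChrRNA-seq) was compared between the late and the early part of a silencing time course in D5 and G6, the SmcHD1 knockout (KO) clones of the iXist-ChrX_Cast line. All count files of these clones from days 5, 7, 15, 21 and 35 of Xist induction were taken, 19 of the 72 libraries of the series. Where a replicate had libraries R1 and R2 they counted as 1, which left 8 replicates of days 5 and 7 (2 per clone and day) and 6 late replicates, labelled NPC, of days 15, 21 and 35 (1 per clone and day). The line is a female mouse embryonic stem cell (mESC) line from a cross of a 129S strain, whose alleles are called Dom here, with Mus musculus castaneus (Cast). A doxycycline-dependent promoter drives Xist from the Cast X in every group, so Cast is the future inactive X (Xi) and Dom the active X (Xa), and doxycycline was present throughout. D5 and G6 are each a single clone of the same line in which SmcHD1 was mutated with CRISPR. The unedited line (WT; 6 replicates of days 5 and 7, and 3 late replicates, 1 per day) gave the levels and changes without the mutation, and uninduced mESCs (3 replicates) and days 2 and 3 (8 replicates) of D5 and G6 gave the levels before day 5. Cells left the feeder layer before differentiation, were moved to suspension with EGF and FGF on day 7, were replated on day 10 and were then passaged as neural precursor cells (NPCs). Nothing in the labels states that replicates of a clone came from separately derived cells, so p-values measure the spread between these cultures, and a clone is not a replicate of the genotype beyond these 2 clones.

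X chromosome inactivation equalises X-linked dosage between females and males. Xist RNA coats the chromosome from which it is transcribed, the SPEN and Polycomb pathways shut genes down within days, and SmcHD1, a non-canonical SMC protein, is recruited later and is known for its part in keeping a subset of genes silent and their CpG islands methylated. A small group of escape genes, among them Kdm5c, Kdm6a, Eif2s3x and Ddx3x, is transcribed from the Xi even in mature cells. ChrRNA-seq samples the RNA retained on chromatin, largely nascent, so it follows transcription closely. The measure of silencing is the allelic ratio, Cast fragments divided by Cast plus Dom fragments of a gene: 0.5 means equal transcription from both X chromosomes and 0 means complete silencing of the Cast X.

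Library totals ranged from 20241604 to 30424283 fragments over genes, and between 46.052% and 50.253% of them were assigned to an allele. The ratio could be followed in 389 X-linked genes, after 10 of the 399 genes in the deposited ratio table were left out for a missing value. The median gene had 201 to 590 allelic fragments per replicate, so that 3 Cast fragments, the upper limit a count of 0 allows, correspond to a ratio of 0.00508 to 0.0149. Ratios below this limit cannot be told from complete silencing in a single replicate. In the replicates numbered 1 of days 5 and 7, where a replicate had both libraries, R2 gave a higher median ratio than R1 in each clone (0.0482 against 0.0234 at day 5 and 0.0495 against 0.0250 at day 7 in D5, and 0.0382 against 0.0155 and 0.0303 against 0.0130 in G6). The ratios at days 5 and 7 therefore depend on R2. Of the genes named below, Xist, Sytl5 and Renbp lost their ratio call with R1 only (adjusted p = 0.203, 0.0842 and 0.0842), and Flna and Siah1b lost their difference from WT (0.0707 and 0.0869).

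The median ratio over genes was 0.0303 ± 0.00652 (SD, n = 8) at days 5 and 7, with a range of 0.0231 to 0.0400, and 0.0117 ± 0.00513 (n = 6) in the late replicates, with a range of 0.00412 to 0.0165. Every late replicate lay below every replicate of days 5 and 7. With R1 only, the medians of days 5 and 7 reached down to 0.0130 in G6 and the periods overlapped, with a difference of -0.0131 (exact permutation p = 0.00571). The difference of -0.0186 with both libraries had an exact permutation p of 0.000816 (two-sided, period labels permuted within each clone), the smallest p the 1225 arrangements allow. No such fall was found in the number of genes with a ratio above 0.1. On average 51.25 genes (range 32 to 64) had a ratio above 0.1 at days 5 and 7 and 53.5 genes (range 32 to 77) late, a difference of 2.25 genes with an exact permutation p of 0.731. The direction of this difference depends on the library: the mean at days 5 and 7 was 45.5 genes with R1 only and 60.75 with R2 where a replicate had it. In D5 the number was 62, 51 and 77 genes at days 15, 21 and 35, and in G6 it was 45, 32 and 54. The late WT replicates had 12, 17 and 20 such genes and a median ratio of 0.00161 to 0.00487.

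**Figure D1:**
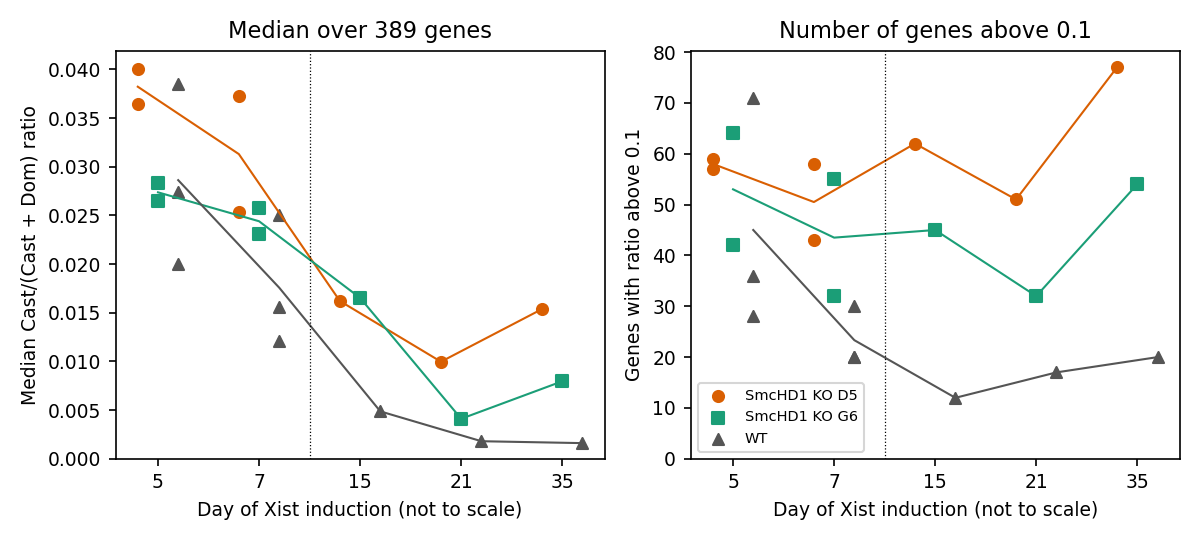
Median allelic ratio over 389 X-linked genes (left) and number of genes with a ratio above 0.1 (right) in each replicate, by day of Xist induction; lines join the daily means of D5, G6 and WT, and the dotted line separates days 5 and 7 from the late days. The 6 late knockout replicates have medians of 0.00412 to 0.0165, all below the 0.0231 to 0.0400 of days 5 and 7, while their number of genes above 0.1 stays between 32 and 77.

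Gene by gene, 28 of 389 genes had a higher ratio late and 140 a lower one (limma with clone as a factor, Benjamini-Hochberg adjusted p below 0.05), which is 7.2% and 36% of the genes tested. The median difference over all 389 genes was -0.00881. No call was made in either direction for 221 genes. With day 7 alone as the base 10 genes were higher and 62 lower, and with day 5 alone 7 were higher and 125 lower. The call counts rest on few replicates. With each clone's replicates of the same number averaged within a period, which leaves 4 pairs, 1 gene was higher and 17 were lower, and with R1 in place of both libraries 26 were higher and 64 lower. D5 alone gave 10 higher and 44 lower genes. G6 alone gave 0 higher and 2 lower genes by limma, with 129 genes at an unadjusted p below 0.05 in either direction. The change was larger in D5 than in G6 for 25 of the 28 higher genes (all but Pnma5, Vma21 and Tsr2). The fall was also larger in D5 for 111 of the 140 lower genes, so this holds in both directions. Yet no gene passed the test of a difference between the clones (0 of 389 by limma, with 22 at an unadjusted p below 0.05).

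Most of the 28 genes with a higher late ratio had first been silenced. Their median ratio was 0.428 in uninduced mESCs, 0.173 at days 2 and 3, 0.0798 at days 5 and 7 and 0.139 late. For 23 of them the mean ratio fell from days 2 and 3 to days 5 and 7. The same fall was found in 139 of the 140 lower genes and 214 of the 221 genes called neither way, so it is not particular to the 28. The other 5 (Tsix, Pnma5, Atp6ap1, Rlim and Xist) were no lower at days 5 and 7 than at days 2 and 3. Only Tsix and Xist had a late mean above that of uninduced cells, and 8 of the 28 were late at or above their mean of days 2 and 3. In 4 genes, Tsix, Utp14a, Zfx and Itgb1bp2, every late replicate lay above every replicate of days 5 and 7, as it did for 1.03% of all genes tested (these 4). With R1 only the genes apart were Tsix, Utp14a, Zfx, Smc1a and Gprasp1, and with R2 where a replicate had it they were Tsix, Utp14a and Itgb1bp2.

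The largest rise was that of Tsix, the antisense partner that represses Xist in mESCs. Its ratio lay between 0.383 and 0.649 at days 5 and 7 (median 0.553) and between 0.715 and 0.963 late (median 0.938), a difference of 0.368 ± 0.0563 (SE, adjusted p = 0.00116). This rise came from the other allele: Dom-allele Tsix RNA fell by 2.51 ± 0.624 on the log2 scale (edgeR, adjusted p = 0.00432), while the change of Cast-allele Tsix RNA was 0.35 ± 0.27 and did not pass (adjusted p = 0.295). In WT cells the Tsix ratio went from 0.575 to 0.939. Xist itself, read from the opposite strand, was 0.964 at days 5 and 7 and 0.968 late. Xist level was 13879 to 32716 RPM (fragments of the gene scaled to a fixed library total) at days 5 and 7 and 18925 to 36783 RPM late. The rise of 0.48 in log2 RPM had an exact permutation p of 0.00735, and the ranges of both periods overlap. Tsix level was far lower, at 76.0 to 276 RPM at days 5 and 7 and 51.5 to 192 RPM late. Whether some fragments counted as Cast Tsix came from Xist was not tested, which limits the Tsix ratio. Smchd1, the targeted gene, still gave RNA over its transcript (491 to 613 RPM at days 5 and 7, 270 to 537 RPM late). Counts over the whole transcript do not show whether the gene was disrupted.

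Utp14a, which encodes a nucleolar protein of ribosome assembly and is known to escape in some mouse tissues, had the third-largest rise. It lay at 48256933 to 48282449 on the X (mm10, coordinates of the count files), and its ratio was 0.0654 to 0.111 at days 5 and 7 against 0.142 to 0.228 late, without overlap (difference 0.104 ± 0.0152, adjusted p = 0.00116). Here too the Dom allele moved: its RNA fell by 1.18 ± 0.26 on the log2 scale (adjusted p = 0.00203), and the Cast allele did not pass (log2 change 0.02 ± 0.20). Pnma5, of the paraneoplastic antigen family, had a ratio of 0.0417 to 0.292 at days 5 and 7 and 0.182 to 0.525 late. Its ranges overlap and a single replicate held as few as 3 allelic fragments, so its ratio is imprecise.

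In most of the 28 genes Cast-allele RNA rose, often together with Dom-allele RNA. Cast-allele RNA could be tested in 26 of them (Emd and Pnma5 had too few Cast fragments), and it rose in 18 and fell in 0 (edgeR, adjusted p below 0.05). In each of these 18 it rose by more than Dom-allele RNA, which rose in 12, did not pass in 5 and fell in 1, Rlim. In the remaining 8 genes Cast-allele RNA did not pass, and in 4 of them, including Tsix, Utp14a and Huwe1, Dom-allele RNA fell. By comparison, Cast-allele RNA rose in 14.6% and fell in 44.3% of all 185 X-linked genes tested, against 27.9% and 24.5% of the 12392 genes tested genome-wide. Dom-allele RNA rose in 30.8% and fell in 25.3% of 471 X-linked genes, against 28.1% and 24.8% genome-wide. These 18 genes were chosen by a ratio that contains the Cast counts, so their number is a description of the Cast allele and not a separate test. With counts scaled to library totals, 20 of the 27 X-linked Cast-allele rises were called again, so some of them depend on the scaling. In bulk RNA, more cells transcribing the Cast allele and more transcription per cell cannot be told apart.

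**Figure D2:**
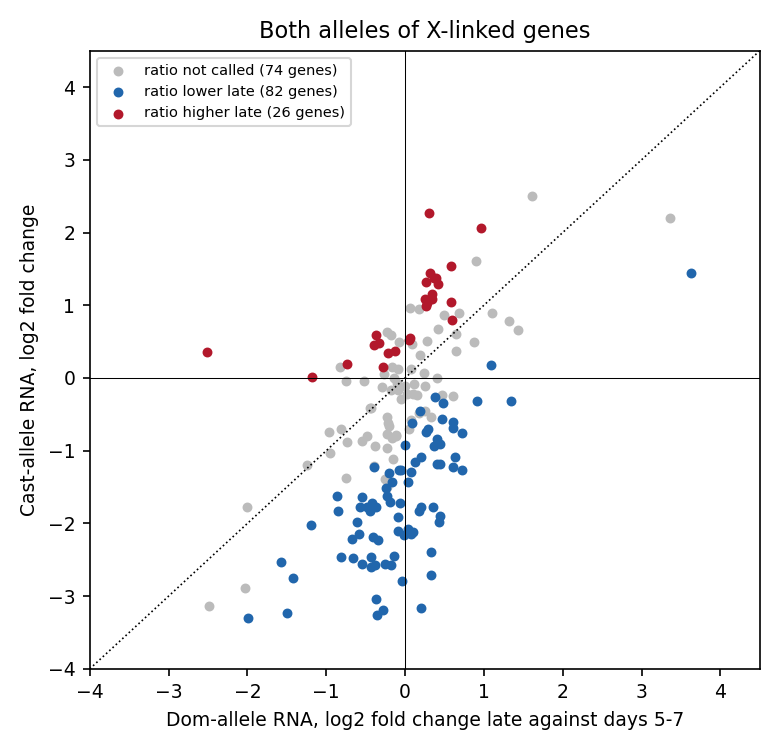
Log2 fold change, late against days 5 and 7, of Cast-allele RNA (vertical) and Dom-allele RNA (horizontal) for the 182 X-linked genes of the ratio table in which both were tested; the dotted line marks equal change. The 26 genes with a higher ratio (red) lie above the line, 18 of them with a Cast-allele rise that passed the test, and the 82 genes with a lower ratio (blue) lie below it.

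The genes in which the Cast allele itself rose encode proteins of many functions. Igbp1, a partner of PP2A phosphatases, went from 0.0903 to 0.162 (median 0.123) at days 5 and 7 to 0.139 to 0.239 (median 0.189) late, a difference of 0.0679 ± 0.0165 (adjusted p = 0.00755). Flna, the actin cross-linker filamin A, went from a median of 0.0423 (range 0.00993 to 0.145) to 0.119 (0.0887 to 0.145), a difference of 0.0663 ± 0.0181 (adjusted p = 0.0118), with a Cast-allele rise of 2.06 ± 0.66 on the log2 scale. Only the highest of the 8 early Flna values reached the late range. Zrsr2, a splicing factor of minor introns, went from a median of 0.0964 (0.0767 to 0.135) to 0.159 (0.109 to 0.265), a difference of 0.0648 ± 0.0173 (adjusted p = 0.0108). The promoters of these 3 genes are shown because SmcHD1 is known for CpG island methylation on the Xi; Kdm6a, the gene whose ratio fell most, is shown for contrast. Each is the 300 bases from 250 before to 50 after the annotated start, in the sense of the gene, from RefSeq (GRCm38.p6), with CG dinucleotides in capitals: Igbp1 at chrX:100494041-100494340 (plus strand), Flna at chrX:74246485-74246784 (minus), Zrsr2 at chrX:163958617-163958916 (minus) and Kdm6a at chrX:18162325-18162624 (plus).
Igbp1: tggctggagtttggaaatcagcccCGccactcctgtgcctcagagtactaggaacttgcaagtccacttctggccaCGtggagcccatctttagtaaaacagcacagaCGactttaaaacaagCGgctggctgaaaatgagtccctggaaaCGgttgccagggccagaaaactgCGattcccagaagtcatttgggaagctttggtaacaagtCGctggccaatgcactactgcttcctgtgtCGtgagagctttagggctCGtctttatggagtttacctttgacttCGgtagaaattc
Flna: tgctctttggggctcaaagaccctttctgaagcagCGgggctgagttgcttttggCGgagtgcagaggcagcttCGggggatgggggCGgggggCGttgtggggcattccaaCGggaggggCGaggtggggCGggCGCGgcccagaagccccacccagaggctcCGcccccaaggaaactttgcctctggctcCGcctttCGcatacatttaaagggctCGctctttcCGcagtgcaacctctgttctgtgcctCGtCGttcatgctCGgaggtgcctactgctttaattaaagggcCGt
Zrsr2: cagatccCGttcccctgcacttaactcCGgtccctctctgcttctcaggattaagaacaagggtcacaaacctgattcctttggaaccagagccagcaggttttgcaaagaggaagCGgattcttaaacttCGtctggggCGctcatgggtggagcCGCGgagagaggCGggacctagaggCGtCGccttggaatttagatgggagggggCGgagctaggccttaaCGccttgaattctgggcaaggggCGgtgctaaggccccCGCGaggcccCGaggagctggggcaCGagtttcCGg
Kdm6a: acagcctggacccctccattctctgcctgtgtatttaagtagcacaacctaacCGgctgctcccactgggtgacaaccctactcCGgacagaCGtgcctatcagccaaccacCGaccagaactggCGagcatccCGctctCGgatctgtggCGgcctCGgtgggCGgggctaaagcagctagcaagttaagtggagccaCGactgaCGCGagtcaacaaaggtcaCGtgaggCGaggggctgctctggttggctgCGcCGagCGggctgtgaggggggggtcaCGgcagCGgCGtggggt
These windows hold 10, 19, 18 and 21 CG dinucleotides in that order. The median number of CG dinucleotides, taking the richest start of a gene, was 18 in the 23 higher genes with a promoter in the table, 18 in 114 lower genes, 19 in 175 genes called neither way, and 7 over all 1046 X-linked genes of the table, 92.8% of which held at least 1. Methylation was not measured in these libraries.

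Itgb1bp2 (melusin, a muscle integrin-binding protein) was at 0 to 0.0280 at days 5 and 7 and at 0.0350 to 0.0956 late, without overlap, and its Cast-allele RNA rose by 2.27 ± 0.46 on the log2 scale (adjusted p = 0.00111), the largest Cast rise among the 28. Zfx, a transcription factor of stem cell self-renewal, also separated completely, at 0.0451 to 0.106 against 0.114 to 0.161, and its Cast-allele RNA rose by 1.38 ± 0.18 (adjusted p = 3.82e-05). Slc25a53, a mitochondrial carrier, went from 0.0689 to 0.131 to 0.119 to 0.323. Its highest value was that of D5 at day 35, and the next highest was 0.172. Emd, the nuclear envelope protein emerin, went from 0.0250 to 0.103 to 0.0685 to 0.235 on 41 or more allelic fragments per replicate. Vma21 (assembly of the vacuolar proton pump) went from a mean of 0.121 ± 0.0228 (SD, n = 8) to 0.181 ± 0.0408 (n = 6), with equal rises in D5 and G6 (0.0600 and 0.0601). Nono, Smc1a, Tsr2, Rlim, Rpl10, Yipf6, Pbdc1, Huwe1 and Gprasp1 had smaller differences, from 0.0290 to 0.0532. With the replicate block Tsr2 did not pass (adjusted p = 0.0542). Gprasp1 shares strand and position with Armcx5, so fragments of the pair may have been lost or mixed in counting.

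**Figure D3:**
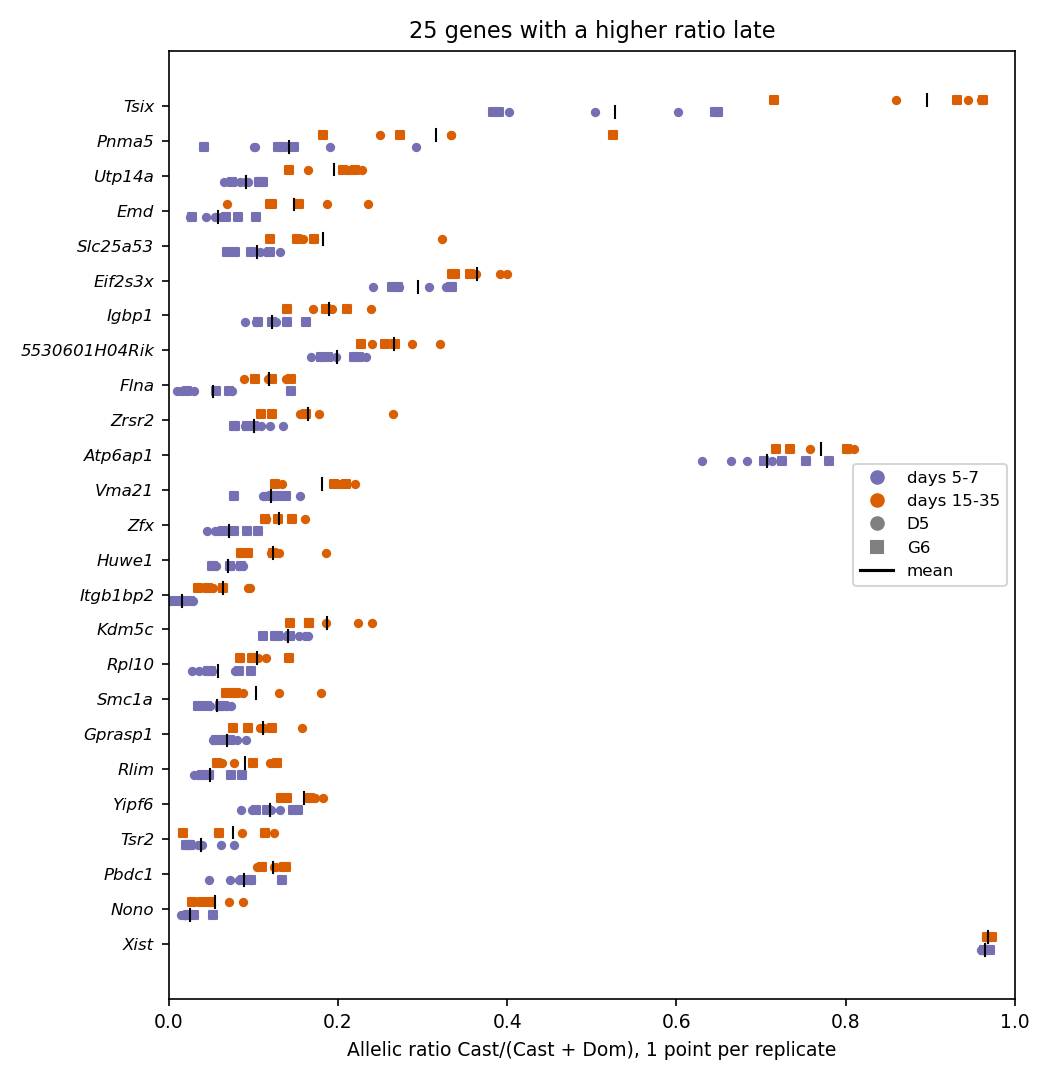
Allelic ratio in every replicate of D5 (circles) and G6 (squares) for 25 of the 28 genes with a higher ratio late, days 5 and 7 in purple and days 15 to 35 in orange, black bars marking the mean of each period. Points of both periods are apart in Tsix, Utp14a, Zfx and Itgb1bp2 and overlap in the other 21 genes drawn.

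The rise of these genes was compared with the change in WT cells of the same line and days. WT means fell late in 21 of the 28 genes, and the median over the 28 went from 0.0569 to 0.0188. The KO change exceeded the WT change in 17 of the 28 (limma interaction of genotype with period, adjusted p below 0.05). Over all 388 genes tested this difference was called for 22 (5.67%), with a larger late ratio in KO than the WT change gives in each of the 22. The 28 genes were chosen by a KO rise that this difference contains, so the 17 are a description and not a separate test. The largest differences among the 28 were Zrsr2 (0.140 ± 0.0274), Emd (0.130 ± 0.0293), Slc25a53 (0.128 ± 0.0329), Igbp1 (0.114 ± 0.0249) and Yipf6 (0.111 ± 0.0206). Taf1, a subunit of the TFIID complex, showed the largest difference of all without a called KO rise: its KO mean went from 0.206 to 0.262 and its WT mean from 0.189 to 0.0441. In Mmgt1, Phf8, Siah1b and Mbtps2 as well the WT ratio fell and the KO ratio passed in neither direction. For the other 11 of the 28 the difference from WT did not pass. Among them, Tsix and Pnma5 rose in WT too (adjusted p = 0.00916 and 0.0428; 0.773% of all genes were called higher in WT). With the log2 of Cast over Dom fragments 65 genes differed from WT, 18 of them among the 28, and with R2 only where a replicate had it 12 did, 9 of them among the 28. With single replicates left out in turn, between 10 and 26 genes differed from WT, so the size of this group depends on individual replicates; it was 11 without G6 at day 35 and 10 without WT at day 21.

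The escape genes did not move together. Eif2s3x, a translation initiation factor subunit, rose from 0.294 ± 0.0364 to 0.364 ± 0.0269 (difference 0.0697 ± 0.0213 SE, adjusted p = 0.0192), while neither of its alleles passed on its own. Kdm5c, a histone H3K4 demethylase, rose from 0.141 ± 0.0186 to 0.187 ± 0.0377 (adjusted p = 0.0115), and its Cast-allele RNA rose by 0.54 ± 0.11 on the log2 scale with no Dom-allele change that passed (0.07 ± 0.07). Kdm6a, a histone H3K27 demethylase, went the other way, from 0.239 to 0.346 at days 5 and 7 to 0.0747 to 0.226 late, the largest fall of all (-0.150 ± 0.0242, adjusted p = 0.00116), and it fell in WT by a similar amount (-0.162). Ddx3x, an RNA helicase, had a mean of 0.138 ± 0.00901 and then 0.107 ± 0.0331, which did not pass (adjusted p = 0.0767). For none of the 4 did the difference between KO and WT pass (adjusted p between 0.582 and 0.984). The genes with the highest late ratios after Xist and Tsix were Atp6ap1 (0.770, a proton pump accessory subunit), Slc25a5 (0.541, an adenine nucleotide carrier), Apool (0.466, a mitochondrial cristae protein), Eif2s3x, Las1l (0.362, ribosomal RNA processing), Pnma5 (0.316), Morf4l2 (0.309, a chromatin factor) and the non-coding 5530601H04Rik (0.266). Of these, Slc25a5, Apool, Las1l and Morf4l2 did not pass, with differences of 0.00863, 0.0452, 0.0245 and 0.0337. Ratios were high in late WT cells too, so they are not particular to the KO clones. The late WT means were 0.745 (Atp6ap1), 0.481 (Slc25a5), 0.393 (Apool), 0.380 (Eif2s3x), 0.344 (Las1l), 0.358 (Pnma5) and 0.294 (Morf4l2). For 5530601H04Rik the late WT mean was lower, at 0.144.

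At a limit of 0.1 on the mean ratio, 30 genes were above it in both periods, 15 only at days 5 and 7, 23 only late and 321 in neither. The 23 that crossed upwards include 10 of the 28 called genes, among them Utp14a, Emd, Zfx, Pbdc1, Huwe1, Flna, Gprasp1, Rpl10 and Smc1a. Of the 28 higher genes, 14 were above 0.1 late in KO and not in WT. Just above the limit were Fam50a (0.101) and Pim2 (0.102) and just below it Idh3g (0.0981).

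The median ratio of the 140 genes with a lower ratio went from 0.0337 at days 5 and 7 to 0.00760 late, and 84 of them ended below 0.01, near the limit set by depth. Cast-allele RNA was tested in 82 and fell in 65, rising in 1, Aff2. In 43 of these 65 Dom-allele RNA had not fallen. The Cast allele of the other 58 had too few fragments to test, and over the 140 Dom-allele RNA rose in 45 and fell in 30. In 40 genes every late replicate lay below every replicate of days 5 and 7, which is 10.3% of all genes; with R1 only it was 10 genes. Rpgr, a ciliary protein, went from 0.111 to 0.219 to 0.0232 to 0.0783 (difference -0.105 ± 0.0155, adjusted p = 0.00116), and its Cast-allele RNA fell by 2.19 ± 0.32 on the log2 scale. Klhl13 (a ubiquitin ligase adaptor) fell by 0.108, Rab9 (endosomal transport) by 0.0826, Sytl5 by 0.0818, Cfp (properdin) by 0.0786, Fundc1 (a mitophagy receptor) by 0.0769, Ebp (sterol synthesis) by 0.0698, Zfp182 by 0.0692, Ppp1r3f by 0.0663 and Renbp by 0.0639. Il1rapl2, an interleukin receptor family gene, fell from a mean of 0.103 to 0.00267, and its Dom-allele RNA rose by 7.80 ± 0.71 on the log2 scale, with too few Cast fragments to test. By the test above 0 of the 140 changed differently from WT, and with the log2 of Cast over Dom fragments 8 did. In WT 60 of the 140 were also called lower, as were 24.7% of all genes.

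Called genes were spread unevenly along the chromosome. In the first 40 Mb, 0 of 76 genes were higher late and 37 were lower. Between 60 and 80 Mb 8 of 61 were higher, among them Emd, Flna, Rpl10 and Atp6ap1, and between 100 and 120 Mb, the interval with Xist, 9 of 53 were. Everywhere the median difference was negative, from -0.0278 in the first 20 Mb to -0.000595 between 100 and 120 Mb. No test was run over positions, since neighbouring genes are not independent.

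**Figure D4:**
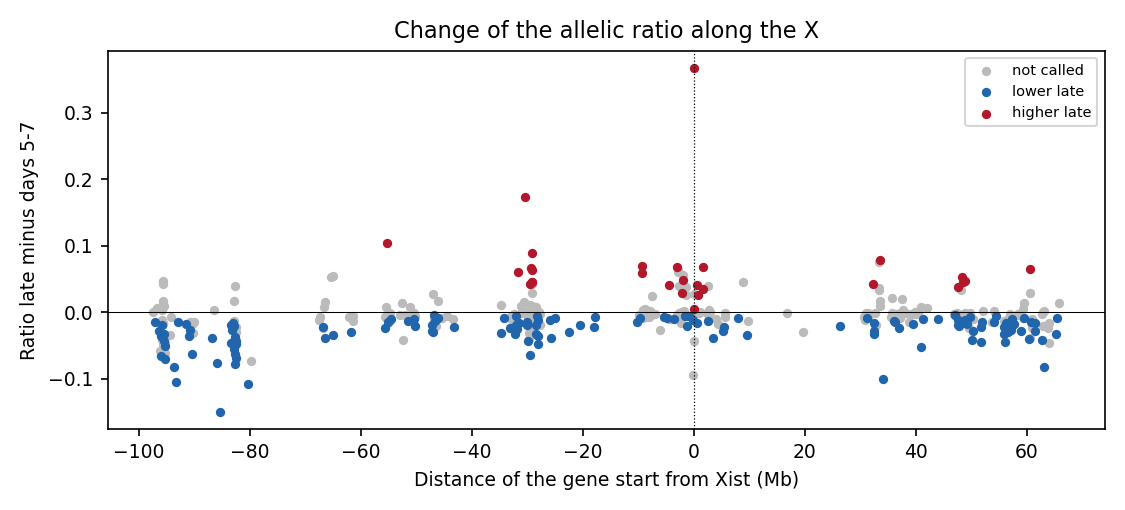
Difference in allelic ratio (late minus days 5 and 7) of 389 genes against the distance of the gene start from Xist in Mb. Red points, higher late, are absent from the 76 genes of the first 40 Mb and lie mostly near Xist and about 30 Mb before it; blue points, lower late, occur along the whole chromosome.

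Total RNA changed widely over the same interval: 4217 of 14942 genes rose (28.2%) and 4018 fell (26.9%; edgeR quasi-likelihood test, adjusted p below 0.05). Scaled to library totals instead of by TMM, 2736 rose and 6229 fell, with the median of all genes shifted by -0.274 on the log2 scale, so small changes depend on the scaling. No gene passed the test of a clone difference (0 of 15402 by edgeR, 594 at an unadjusted p below 0.05; 0 by DESeq2). Pluripotency genes were lost. Of 17 naive pluripotency genes 14 fell (median log2 change of the list -3.11), led by Tcl1, Nanog, Tfcp2l1 and Fgf4. Nanog, a core naive factor, lay at 10.4 to 35.1 RPM at days 5 and 7 and 0.0533 to 3.50 RPM late (log2 change -3.67 ± 0.69). Of 13 core and primed pluripotency genes 12 fell (median -2.31), among them Pou5f1, Utf1, Lefty1 and Lefty2. The de novo methylation genes Dnmt3b (-1.63 ± 0.48) and Dnmt3l (-3.34 ± 0.81) fell with them. The summed level of the naive list was 210 to 446 RPM at days 5 and 7 and 5.63 to 83.9 RPM late. In WT it was 199 to 379 RPM and then 15.5 to 77.6 RPM. The core and primed list summed to 605 to 851 RPM and then 7.57 to 380 RPM. In WT that sum was 614 to 738 RPM and then 131 to 424 RPM. The change of total RNA was not tested against WT. Of 16 cell division genes 13 fell by smaller amounts (median -0.57), Cenpf most (-1.36 ± 0.22). Among the 10 largest falls were also the endocytic receptor Lrp2 (949 to 1508 RPM, then 2.15 to 195 RPM), Fabp3, Triml1, Triml2, Dppa5a and Dnah8.

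The late libraries are labelled NPC, and their neural precursor genes did not move one way. Sox1 and Sox2 were counted at 0 in every replicate of both periods. Each lies within another transcript of the same strand (Gm5607 and Sox2ot), so the counting could not assign their fragments and they check nothing. Of 16 neural precursor genes, 11 could be tested, 3 rose (Vim, Sox9 and Gli3) and 3 fell (Sox3, Prom1 and Hes1), near the 28.2% and 26.9% over all genes. The median log2 change of the list was 0.35, and its summed level was 1132 to 1786 RPM at days 5 and 7 and 1834 to 2549 RPM late, without overlap. In WT the sum was 1307 to 1590 RPM and then 1821 to 2547 RPM, so its rise is not particular to KO. Of the 16 genes 7, with Sox1 and Sox2 among them, stayed below 1 RPM in every late KO replicate. Pax6, a defining neural precursor factor, was at 0.481 to 0.922 RPM at days 5 and 7 and at 0.213 to 0.939 RPM late (log2 change -0.27 ± 0.32). Hes5 and Nr2e1 stayed below 0.3 RPM in every replicate, and Olig2 and Gfap likewise. Nes was at 23.6 to 114 RPM and then 32.5 to 227 RPM, and did not pass (adjusted p = 0.0603). Of 8 tested genes of radial glia and cultured neural stem cells 7 rose, led by Tnc (6.17 ± 0.55), Ntrk2, Egfr and Cd44, genes that mesenchymal cells are known to use as well. Of 13 neuronal genes 5 rose (Dcx, Isl1 and Map2 most) and 3 fell, of 7 astroglial genes 1 rose and 3 fell, and of 6 oligodendroglial genes 2 rose and 1 fell. Over all genes 28.2% rose and 26.9% fell, and nothing is read from counts this small. The late libraries are called late here.

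Genes of fibroblasts and other mesenchyme rose the most. Of 12 fibroblast genes 11 rose (median log2 change 5.76), all but Thy1. Col3a1, a fibrillar collagen, had a median of 5.42 RPM at days 5 and 7 and lay at 889 to 11195 RPM late, and Col6a3, a microfibrillar collagen, at 0.519 to 1.15 RPM and then 199 to 2399 RPM (log2 change 10.74 ± 0.68, adjusted p = 1.67e-07). The summed level of the list was 395 to 1447 RPM at days 5 and 7. In D5 it was 5455, 8365 and 23521 RPM at days 15, 21 and 35, and in G6 it was 3279, 10003 and 18591 RPM, against 1360, 8254 and 18273 RPM in WT. These transcripts came from both alleles, with 47.5% to 54.3% of the allelic fragments of the list from Cast in the late KO replicates. Meox2, a mesodermal homeobox gene, Dnm3os, Emcn, Lrrc17, C1qtnf7 and Mgp were also among the 10 largest rises. For Mgp 2 fragments were counted over the 8 replicates of days 5 and 7 and 2508 late, and scaled to library totals the ratio was 2122 (95% counting interval 587 to 17535). Of 5 tested epidermis and neural crest genes 3 rose (Tfap2b, Snai2 and Tfap2a) and 2 fell (Trp63 and Cdh1). Of 5 mesoderm genes 1 rose (Kdr) and 1 fell (Tbx6), and of 7 endoderm genes 0 rose and 1 fell (Sox7). Of the blood genes only Csf1r was tested and it did not pass. With 28.2% of all genes rising and 26.9% falling, nothing is read from the epidermis and neural crest, mesoderm, endoderm and blood counts. The part of this change of cell state in the allelic results was not tested.

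**Figure D5:**
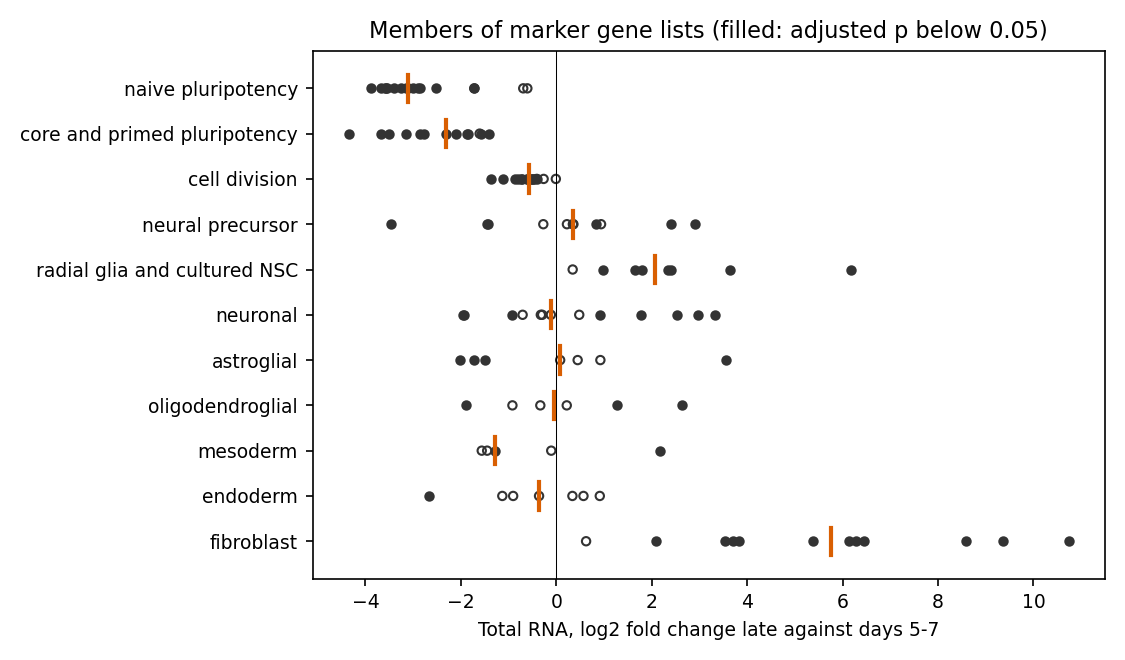
Log2 fold change of total RNA, late against days 5 and 7, for the tested members of 11 marker lists; filled points passed the test (adjusted p below 0.05), open points did not, and orange bars mark the list median. Pluripotency lists lie to the left (medians -3.11 and -2.31), the fibroblast list to the right (median 5.76), and the neural lists between them.

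The 5 X-linked genes with the largest rise in total RNA were Tnmd, Agtr2, Il1rapl2, Bgn and Srpx, and nearly all their late allelic fragments came from Dom. Bgn, a collagen-binding proteoglycan, went from 0.657 to 1.88 RPM to 24.5 to 156 RPM (log2 change 5.78 ± 0.47), and 0.153% of its late allelic fragments came from Cast. The Cast share was 0.777% for Tnmd, 0.513% for Agtr2, 0.208% for Il1rapl2 and 1.36% for Srpx. Tnmd (tenomodulin) and Agtr2 (an angiotensin receptor) had 2 and 3 fragments in all at days 5 and 7 against 4785 and 6346 late. The X-linked genes with the largest falls were Fmr1nb, Ptchd1, Bex1, Nxf7 and C330013F16Rik (log2 changes -3.07 to -2.58). Over all 542 X-linked genes tested 161 rose (29.7%) and 149 fell (27.5%), close to the shares over all genes. Of 24 genes for Xist and its silencing factors 6 rose (among them Xist, Hdac3, Dnmt3a, Ciz1 and Rnf2) and 8 fell, among them Spen, Rbm15, Lbr, Jarid2 and Suz12 (-0.99 ± 0.20), near the 28.2% and 26.9% of all genes. With library totals 3 rose and 11 fell, so the balance of this list depends on the scaling. Total Smchd1 RNA had a log2 change of -0.28 ± 0.12 and did not pass.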

How the data were processed

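ChrRNA-seq libraries were ribosomal RNA-depleted and stranded. The authors removed ribosomal reads with Bowtie2 (2.3.2), aligned the rest with STAR (2.4.2a) to an mm10 genome with SNPs masked, keeping unique alignments, assigned reads to alleles with SNPsplit and counted fragments per gene over whole transcripts, by strand, with featureCounts. The deposited files used here hold counts of fragments (all, Cast and Dom) for 22556 genes, 908 of them X-linked. The deposited ratio table gives Xi/(Xi+Xa) as a fraction for 399 genes that passed the authors' filters on allelic depth and uninduced ratio; recomputed from the counts, 18337 of its values differed by at most 5e-16. Counting over whole transcripts includes introns, and masking SNP positions reduces but does not remove reference bias.

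From these, ratios of R1 and R2 were averaged and their counts summed. Ratios were compared with limma (3.58.1; lmFit and eBayes with trend, clone as a factor), and the change was compared with that of WT by clone-by-period means. Total, Cast and Dom counts were compared with edgeR (4.0.16; filterByExpr, glmQLFit and glmQLFTest, clone as a factor, TMM sizes of the total counts). Median ratio, number of genes above 0.1 and Xist log2 RPM were compared by exact permutation within clones. P-values were adjusted by Benjamini-Hochberg over all genes tested, with a threshold of 0.05. The ratio fit, the total-count fit and the clone interaction of total counts were tested on simulated data. The comparison with WT, the clone interaction of the ratio, the allele-count fits and the permutations were not. Floors are 3 counts, and floors and intervals cover counting error only.

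The members and gene lists were chosen with earlier results of these data known. Named genes are the 12 largest called changes of ratio in each direction, the 10 highest late ratios and the 4 escape genes; for total RNA, the 2 to 4 largest changes of each list and the 10 largest called changes in each direction (5 for the X) with at least 10 RPM in the higher period. Other genes named were chosen after their values were seen. Some genes enter the counts and are not reported by name here. Replicate numbers come from the labels. Between number 1 and number 2 at days 5 and 7, the differences in total RNA correlated across genes in each of 6 pairs of groups (r = 0.274 to 0.614). For the ratio r was -0.111 to 0.337. In each of these groups number 1 held R1 and R2 and number 2 a single library. The correlation therefore cannot tell paired cultures from a difference between these libraries. Late day 15 carries number 1, and days 21 and 35 carry number 2. Alternatives covered library choice, base days, single clones, log ratio, depth, scaling, filter, replicate block, DESeq2 (1.42.0) and single replicates left out.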

Additional observations from a re-analysis of the deposited data

Results flagged for a closer look

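Of 266 groups of replicates examined, 12 (4.51%) held a value far from the others by Dixon's criterion, where chance flags about 5% of groups. For the ratio these were Slc25a53 (0.323, next 0.172) in D5 at day 35, and Renbp (0.182, next 0.109) and Nono (0.0526), both in G6 day 5 replicate 2. For total RNA, in log2(RPM + 0.5), they were Agtr2 (-0.79) in G6 day 5 replicate 2, Nxf7 (3.41), Sox7 (0.66) and Hnf4a (1.57) in G6 at day 15, Tcl1 (-0.037) in D5 at day 15, Sox3 (-0.44) in D5 at day 35, Isl1 (0.73) in G6 day 7 replicate 1, and Lhx2 (0.88) and Lum (0.11) in D5 day 7 replicate 2.

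The change from days 5 and 7 to the late days differed between KO and WT in 22 genes (limma interaction, adjusted p below 0.05). The KO change exceeded the WT change by 0.200 for Taf1, 0.140 for Zrsr2, 0.130 for Emd, 0.128 for Slc25a53, 0.114 for Igbp1, 0.111 for Yipf6 and 0.105 for Siah1b. Smaller differences were found for Vma21 (0.0973), Mmgt1 (0.0940), Zfx (0.0915), Phf8 (0.0898), Flna (0.0888) and Gprasp1 (0.0857). Further genes were Tsr2 (0.0758), Huwe1 (0.0752), Smc1a (0.0724), Itgb1bp2 (0.0678), Mbtps2 (0.0667) and Nono (0.0464). In 5 of these genes, Taf1, Siah1b, Mmgt1, Phf8 and Mbtps2, the KO ratio itself passed in neither direction while the WT ratio fell.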

How the results depend on the processing

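Of 392 alternative values of the main comparisons and their directional counts, 338 kept their direction and threshold side or stayed within 1.5 times the count. For the allelic ratio (168 genes, 28 higher and 140 lower), the count was 90 with R1 only (64 lower), 72 with day 7 only as base (10 higher, 62 lower), 7 higher with day 5 only as base, 54 with D5 alone (10 higher, 44 lower), 2 with G6 alone (0 higher, 2 lower) and 18 with the replicate block of 4 pairs of means (1 higher, 17 lower). Single clones and the 4 pairs use fewer replicates; the cause of the other differences was not tested. With the replicate numbers as a block in the full fit it was 158, with 26 of the 28 higher and 130 of the 140 lower genes called again. Of the genes named, Tsr2 lost its ratio call (adjusted p = 0.0542) and total Ddx3x RNA gained one (0.0483). The other counts with this block moved by less than 1.5 times: Cast-allele RNA 120 (25 of 27 higher and 78 of 82 lower genes called again), Dom-allele RNA 271, total RNA 8461 (3988 of 4217 and 3956 of 4018 again), clone differences 0 and 0, the median ratio -0.0175 and Xist 0.43. Leaving out each replicate in turn gave 139 to 179 genes for the ratio (21 to 29 higher, 112 to 152 lower), 87 to 126 X-linked genes for Cast-allele RNA (20 to 29 higher, 66 to 100 lower), 233 to 279 for Dom-allele RNA (126 to 150 higher, 104 to 129 lower), 7379 to 8880 for total RNA (3749 to 4424 higher, 3585 to 4456 lower), 0 for both clone differences, -0.0204 to -0.0173 for the median ratio and 0.35 to 0.56 for Xist.

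The difference from WT (22 genes) was 12 with R2 only where a replicate had it, 65 with the log2 of Cast over Dom fragments, and 10 to 26 with single replicates left out. It was 14 or fewer without D5 day 7 replicate 2, D5 day 35, G6 day 5 or day 7 replicate 1, G6 day 35, WT day 5 replicate 2 or 3, WT day 7 replicate 3, WT day 15 or WT day 21. X-linked Cast-allele RNA (109) gave 178 with no filter (41 higher, 137 lower). Library totals gave 96 higher and 179 lower genes for Dom-allele RNA, and 2736 higher and 6229 lower for total RNA. Total RNA gave 2535 lower with day 7 only as base, 4958 in D5 alone (2770 higher, 2188 lower) and 3110 in G6 alone (2170 higher, 940 lower). The mean over genes in place of the median fell by 0.00694, with an exact permutation p of 0.0514.

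Of 4446 alternative values of named genes 3958 kept direction and call, 434 lost the call, 33 gained it and 21 changed sign, none of them with a called main value. For the ratio these were Slc25a5 (-0.000145 with R2 only, -0.00607 in G6 alone, and -0.000256 to 0.0160 with single replicates left out, the lowest without D5 day 7 replicate 2) and Las1l (-0.00514 in G6 alone). For Cast-allele RNA they were Utp14a (-0.24 with library totals, -0.14 with days 21 and 35 only as late, chosen after seeing the data, and -0.068 to 0.14 with single replicates left out) and Eif2s3x (-0.11 with library totals). For total RNA they were Kdm5c (-0.21 with library totals, -0.032 with day 7 only), Csf1r (-0.0084 and -0.44) and Cer1 (-0.0027 with day 7 only, -0.14 in G6 alone). Tsr2 and Xist lost their ratio call in 10 and 11 of 14 fits with a replicate left out, Atp6ap1 in 8, Yipf6 and Sytl5 in 4 and Nono and Pbdc1 in 2. With 3 late replicates per clone and 201 allelic fragments for the median gene in the shallowest replicate, small ratios are limited by depth.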
